A study of Mus musculus with 8 samples.

Results

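The mitochondrial genome of the mouse encodes 13 messenger RNAs, all for subunits of the respiratory chain or of ATP synthase, and 10 of them are described here in TM3, a cell line from mouse Leydig cells, which make testosterone in the testis. The 10 were chosen by name, with Ensembl identifiers matched to symbols, among the 12404 genes of a count table. They are mt-Nd1, mt-Nd2, mt-Nd4, mt-Nd5 and mt-Nd6, which encode subunits of complex I (NADH dehydrogenase), mt-Cytb, the cytochrome b of complex III, mt-Co1, mt-Co2 and mt-Co3, the core subunits of complex IV (cytochrome c oxidase), and mt-Atp6, a membrane subunit of ATP synthase. Cells exposed to bisphenol A (BPA), a building block of plastics with estrogen-like activity, were compared with normal cells. Each condition had 2 RNA-seq libraries, which also served as the input of the m6A data, and 2 MeRIP libraries, made from the fragments bound by an antibody to N6-methyladenosine (m6A), a methyl mark on RNA. The labels give neither a dose nor an exposure time, and they do not say whether the 2 libraries of a condition came from separate cultures, so the spread behind each p-value may be technical.

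Mitochondrial mRNAs are cut out of long transcripts that cover nearly a whole strand of the circular genome, so neighbouring genes are made together and their levels are set largely by how long each RNA lasts. mt-Nd6 is the one mRNA read from the opposite strand of the others, and all the proteins join subunits made from nuclear genes. In Leydig cells the respiratory chain is known for keeping up the membrane potential that cholesterol import and steroid synthesis depend on.

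The gene table held between 6305121 and 10455643 reads per library. None of 9 listed markers of Leydig cells, Star and Cyp11a1 among them, was among its rows, and they are not analysed here. Of markers of other testis cells, 3 of 7 for Sertoli cells, 1 of 7 for germ cells, 2 of 6 for macrophages and 1 of 7 for smooth muscle and endothelium were in the table. The macrophage markers summed to 21.0 and 81.5 CPM (counts scaled to a common library size) in the BPA libraries, against 0 and 19.4 CPM in the normal libraries. They did not go the same way. Cd68 had 174 and 436 reads in BPA, against 0 and 59 in normal cells, and Cd14 had 7 and 0, against 0 and 92. The smooth muscle and endothelial marker Acta2 had 57.9 and 237 CPM in BPA, against 6.93 and 45.1 CPM in normal cells, while Adgre1, Csf1r, Ptprc, Myh11 and Pecam1 had no row. The Sertoli cell markers summed to 266 and 135 CPM in BPA, against 166 and 296 CPM in normal cells. Of these, Wt1 had 1952 and 516 reads in BPA, against 1563 and 2307 in normal cells. Clu had 335 and 205, against 221 and 1, and Dhh had 0 and 0, against 135 and 0. The germ cell marker Stra8 had 30 reads in BPA replicate 2 alone. The part of these markers in the results was not tested.

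The reads of the 10 mRNAs together made up a larger share of the BPA libraries. They were 276185 and 235505 reads, or 3.13% and 3.74% of the table, in BPA replicates 1 and 2. In normal replicates 1 and 2 they were 293672 and 198135 reads, or 2.81% and 2.64%. Both BPA libraries thus lay above both normal libraries, with 3.43 ± 0.43% in BPA, against 2.72 ± 0.12% in normal cells (SD, n = 2 each). The 95% Wilson intervals for counting error ran from 3.12% to 3.15% and from 3.72% to 3.75% in BPA, and from 2.80% to 2.82% and from 2.62% to 2.65% in normal cells. An exact two-sided permutation test over libraries gave p = 0.333, the smallest that 2 against 2 libraries allow. The difference was 0.71 percentage points, of which 0.41 were left without BPA replicate 2. Of the reads of genes averaging 1000 reads or more, the members made up 4.29% and 4.95% in BPA, against 4.05% and 3.74% in normal cells. A share also rises when other RNAs fall. In bulk RNA, more of these 10 mRNAs per cell, less of other RNAs and a different mix of cells cannot be told apart.

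The 10 members fell into 2 tiers of abundance. mt-Cytb and mt-Nd2 ranked 2nd and 4th by reads among the 8645 tested genes, and mt-Nd1, mt-Nd5, mt-Co1, mt-Nd6 and mt-Nd4 ranked 11th, 13th, 19th, 40th and 80th. mt-Co2, mt-Co3 and mt-Atp6 ranked 5737th, 6485th and 7818th. Per kb of gene, mt-Nd2 stood highest in BPA cells with 8192 and 12119 CPM per kb, then mt-Cytb with 7069 and 8128 CPM per kb and mt-Nd6 with 4239 and 8181 CPM per kb. mt-Nd1 followed with 4401 and 5897, mt-Nd5 with 2169 and 3520, mt-Co1 with 2459.9 and 2686, and mt-Nd4 with 922 and 1202 CPM per kb. In that order mt-Cytb and mt-Nd6, mt-Nd6 and mt-Nd1, and mt-Nd5 and mt-Co1 overlapped between libraries, and the other neighbours did not.

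The order by the mean of 2 libraries differed in part in normal cells. There mt-Cytb stood highest with 5676 and 7151 CPM per kb, before mt-Nd2 with 6015 and 4340.02, mt-Nd1 with 3902 and 4059, and mt-Nd6 with 2588 and 3343 CPM per kb. mt-Co1 had 1988 and 1878, mt-Nd5 1821 and 1515, and mt-Nd4 874 and 983 CPM per kb. Of these neighbours mt-Cytb and mt-Nd2 overlapped. By their means mt-Nd2 and mt-Cytb therefore held the top 2 places in both conditions, in the opposite order. The reversal rested on normal replicate 2, since mt-Nd2 was also the higher in normal replicate 1, with 6015 against 5676 CPM per kb. In BPA replicate 2 mt-Nd6, with 8181, lay just above mt-Cytb, with 8128 CPM per kb. mt-Nd4 was the lowest of the abundant members in both conditions.

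**Figure D1:**
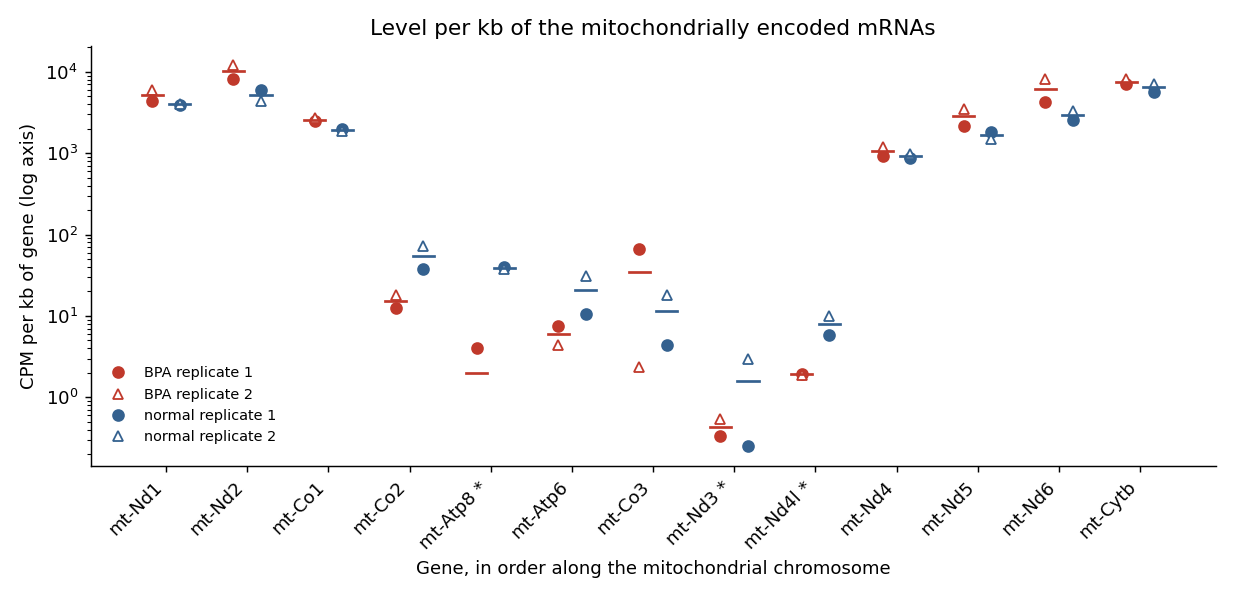
Levels per kb of gene (CPM per kb, log axis) of the 13 mitochondrially encoded mRNAs, in their order along the chromosome, in the BPA (red, left) and normal (blue, right) libraries. Circles are replicate 1, triangles replicate 2, bars the mean of both, asterisks mark the 3 mRNAs that are not among the 10, and mt-Atp8 in BPA replicate 2, with 0 reads, has no symbol. The 6 adjacent genes from mt-Co2 to mt-Nd4l lie between 0 and 72.2 CPM per kb, below all others.

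The 3 scarce members were neighbours. Along the chromosome, mt-Co2, mt-Atp8, mt-Atp6, mt-Co3, mt-Nd3 and mt-Nd4l follow each other directly among the mRNA genes, with mt-Co1 before them and mt-Nd4 after them. mt-Atp8, another ATP synthase subunit gene, had 7 and 0 reads in BPA, against 93 and 60 in normal cells. The complex I genes mt-Nd3, with 1 and 1 reads in BPA, against 1 and 8 in normal cells, and mt-Nd4l, with 5 and 3 in BPA, against 20 and 23 in normal cells, were as scarce. The flanking genes mt-Co1 and mt-Nd4 had at least 22207 and 8866 reads in every library. Copies of mitochondrial DNA are known in the mouse nuclear genome, and whether reads that fit 2 places were counted is not stated for these files, so the counts of this stretch are uncertain as levels of these RNAs.

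Whether single members differed between BPA and normal cells was tested with edgeR's quasi-likelihood test, which judges each gene's difference against the spread between libraries, with Benjamini-Hochberg adjustment over all tested genes. All 10 members passed the filter on low counts. edgeR called 0 of the 10 at an adjusted p of 0.05, as it called 0 of all 8645 genes (0.0%), and adjusted p-values of the members lay between 0.372 and 0.880. At an unadjusted p under 0.05 there were 3 members with higher counts in BPA, mt-Nd2, mt-Nd6 and mt-Nd5, and none with lower counts. Over all tested genes 9.64% were under that limit, 2.41% as higher and 7.23% as lower. Among the 1756 genes averaging 1000 reads or more, to which 7 of the members belong, 5.64% were higher at that limit. DESeq2, run on the same counts, called 2 members, mt-Nd2 with an adjusted p of 0.00886 and mt-Nd6 with 0.0372, where it called 3.05% of all tested genes and called 0.521% as higher.

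Of the complex I genes, mt-Nd2 had the smallest p-value. It had 73174 and 67311 reads in the BPA libraries, against 72053 and 35129 reads in the normal libraries. Scaled to library size by TMM, edgeR's trimmed mean of M-values, neither BPA library reached down to a normal one, with 10541.5 ± 2882 CPM in BPA, against 5374 ± 1229.6 CPM in normal cells (SD, n = 2 each). The log2 fold change, BPA over normal, was 0.97 ± 0.28 (SE), with an unadjusted edgeR p of 0.00419 and an adjusted p of 0.372. Without normal replicate 1 it was 1.29 and mt-Nd2 was the one gene of the table that edgeR called, with an adjusted p of 0.0113, and without BPA replicate 2 it was 0.66.

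mt-Nd6, the complex I gene on the other strand, had 18931 and 22719 reads in BPA, against 15498 and 13529 reads in normal cells. Here too the groups did not overlap in CPM, with 3223 ± 1447 in BPA, against 1539 ± 277 in normal cells (SD, n = 2 each), and BPA replicate 2 carried much of the distance. The log2 fold change was 1.06 ± 0.37 (SE), with an unadjusted edgeR p of 0.0138 and an adjusted p of 0.372, and it was 0.52 without BPA replicate 2. The 3′ end of mt-Nd6 shares 14 bases with that of mt-Nd5 on the opposite strand, and use of strand in counting is not stated for these files, so reads of an antisense transcript cannot be told apart from those of mt-Nd6.

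mt-Nd5 had 34047 and 34357 reads in BPA, against 38337 and 21543 reads in normal cells. In CPM that was 5189 ± 1743 in BPA, against 3042 ± 396 in normal cells (SD, n = 2 each), without overlap. Its log2 fold change was 0.77 ± 0.31 (SE), with an unadjusted edgeR p of 0.0294 and an adjusted p of 0.372, and it was 0.38 without BPA replicate 2. Without that library none of the 3 members kept an unadjusted p under 0.05.

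The other complex I members differed less. mt-Nd1 had 36241 and 30199 reads in BPA, against 43096 and 30293 in normal cells, or 4928 ± 1013 and 3809.7 ± 106 CPM (SD, n = 2 each). mt-Nd4 had 10935 and 8866 reads in BPA, against 13894 and 10567 in normal cells, or 1464 ± 273 and 1279.6 ± 107 CPM. The groups did not overlap for mt-Nd1 and overlapped for mt-Nd4. Their log2 fold changes were 0.37 ± 0.29 and 0.19 ± 0.37 (SE), with edgeR adjusted p-values of 0.634 and 0.880.

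mt-Cytb, of complex III, had 69589 and 49754 reads in BPA, against 74938 and 63789 in normal cells. It was the most evenly expressed of the abundant members between conditions after mt-Nd4, with 8693 ± 857 CPM in BPA, against 7337 ± 1192 CPM in normal cells (SD, n = 2 each) and with groups that overlapped. The log2 fold change was 0.24 ± 0.25 (SE), with an edgeR adjusted p of 0.744.

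Of the complex IV genes, mt-Co1, the catalytic subunit, was the abundant one. It had 32705 and 22207 reads in BPA, against 35440 and 22624 in normal cells, or 3975 ± 247 and 2986 ± 120.1 CPM (SD, n = 2 each), with groups that did not overlap. The log2 fold change was 0.41 ± 0.29 (SE), with an edgeR adjusted p of 0.583.

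The scarce members had values on both sides of zero with wide errors. mt-Co2 had 73 and 66 reads in BPA, against 294 and 385 in normal cells, or 10.4 ± 2.72 and 37.4 ± 16.9 CPM (SD, n = 2 each). mt-Atp6 had 44 and 16 reads in BPA, against 82 and 164 in normal cells, or 4.05 ± 1.501 and 14.1 ± 9.85 CPM. mt-Co3 had 446 and 10 reads in BPA, against 40 and 112 in normal cells, or 26.8 ± 35.3 and 8.91 ± 7.71 CPM. Both BPA libraries lay below both normal libraries for mt-Co2 and mt-Atp6, while the mt-Co3 groups overlapped. The log2 fold changes were -1.84 ± 1.54 for mt-Co2, -1.58 ± 1.63 for mt-Atp6 and 1.99 ± 1.63 for mt-Co3 (SE), with edgeR adjusted p-values from 0.661 to 0.744. The sign of mt-Co3 rested on BPA replicate 1, without which its log2 fold change was -2.09, and mt-Atp6 had -0.65 without normal replicate 2.

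Over the 10 members 8 log2 fold changes were positive and 2 negative, with a median of 0.39 against -0.02 over all tested genes, of which 49.5% were positive. Groups did not overlap in CPM for 5 members that were higher and 2 that were lower in BPA, where 12.8% of all tested genes were higher and 27.2% lower in that way. The 7 abundant members were all positive, from 0.19 to 1.06, with a median of 0.41. The 1756 genes averaging 1000 reads or more had a median of 0.34, and 68.5% of them were positive and 28.4% were higher without overlap. Most of that set had fewer reads than these members, which ranked 2nd to 80th by reads among all tested genes. The median of the abundant members was near that of the set. mt-Nd2, mt-Nd5 and mt-Nd6 lay furthest above it, and mt-Co1 and mt-Nd1, with 0.41 and 0.37, lay just above it.

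How far the members lay above zero depended on the scaling. With the size factors of DESeq2 the median over all tested genes was 0.12 (log2) in place of -0.02, and the split at an unadjusted p under 0.05 was 328 higher and 429 lower in place of 208 and 625. With total reads alone that median was -0.26 and the split 127 and 925. Fitted among genes averaging 1000 reads or more alone, mt-Nd2 had 0.67, mt-Nd6 0.78, mt-Nd5 0.47, mt-Co1 0.13, mt-Nd1 0.09, mt-Cytb -0.03 and mt-Nd4 -0.09. mt-Nd2, mt-Nd6 and mt-Nd5 were the 3 highest of the abundant members in each of these scalings, and the direction of mt-Nd4 turned with total reads alone (-0.06) and in the fit of abundant genes, where mt-Cytb turned too.

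**Figure D2:**
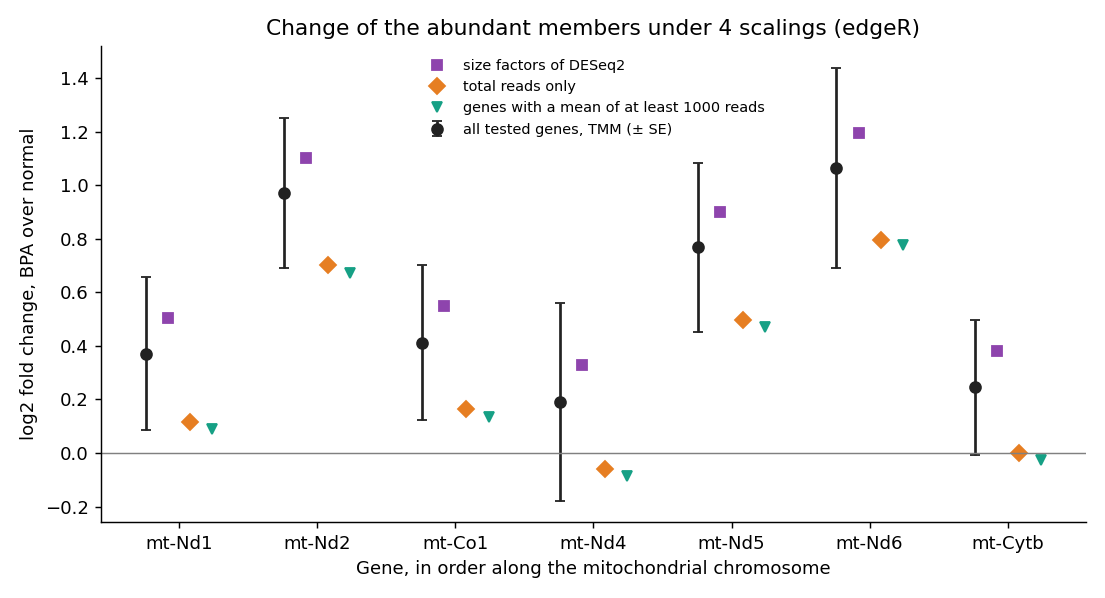
Log2 fold change, BPA over normal, of the 7 abundant members under 4 ways of scaling the libraries, with the standard error for the fit of all tested genes (black circles). mt-Nd2, mt-Nd5 and mt-Nd6 lie highest under each scaling, and mt-Nd4 and mt-Cytb lie near or below 0 with total reads and among genes averaging 1000 reads or more.

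Shares within the mitochondrial mRNA reads do not depend on the scaling between libraries. mt-Nd2 made up 26.5% and 28.6% of the reads of the 10 members in BPA, against 24.5% and 17.7% in normal cells. mt-Cytb made up 25.2% and 21.1% in BPA, against 25.5% and 32.2% in normal cells. mt-Nd2 was the larger of the pair in both BPA libraries and mt-Cytb in both normal libraries. The pair was not among the comparisons set beforehand, and it includes the member with the smallest edgeR p-value. The log2 ratio of mt-Nd2 to mt-Cytb reads was 0.25 ± 0.26 in BPA, against -0.46 ± 0.57 in normal cells (SD, n = 2 each), and normal replicate 1, with -0.06, lay much nearer to BPA replicate 1, with 0.07, than to normal replicate 2, with -0.86.

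mt-Nd1 had 13.1% and 12.8% of the reads in BPA, against 14.7% and 15.3% in normal cells, and mt-Nd4 had 3.96% and 3.76%, against 4.73% and 5.33%. The shares of both were lower in both BPA libraries, by more than the spread within each condition. mt-Nd6 had 6.85% and 9.65% in BPA, against 5.28% and 6.83% in normal cells, so that BPA replicate 1 and normal replicate 2 were nearly equal. mt-Nd5, with 12.3% and 14.6% in BPA, against 13.1% and 10.9% in normal cells, overlapped, as did mt-Co1, with 11.8% and 9.43% in BPA, against 12.1% and 11.4% in normal cells. The other 3 members had at most 0.194% of the reads in any library.

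**Figure D3:**
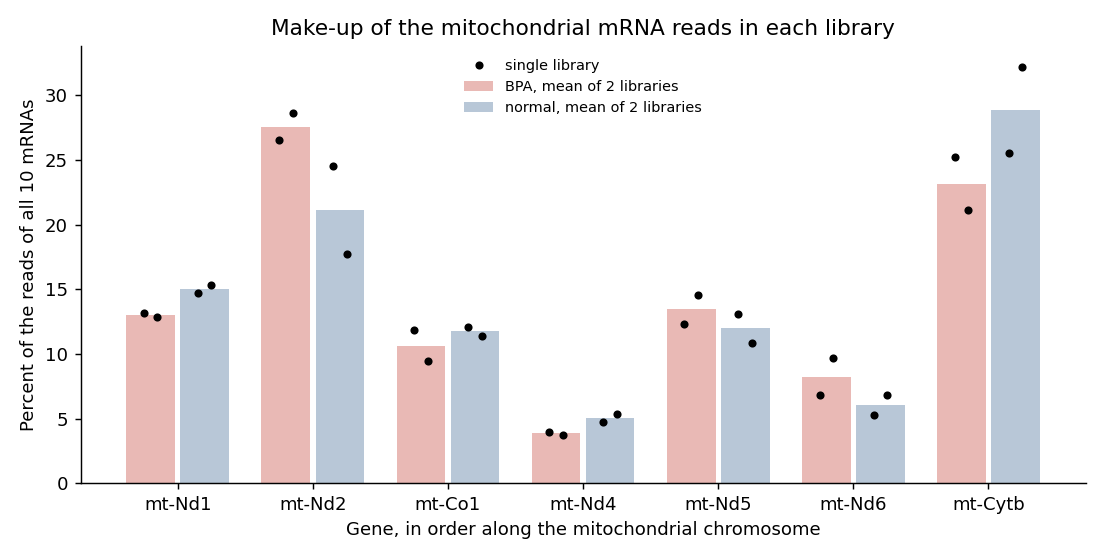
Percent of the reads of all 10 mRNAs that each abundant member took up, in BPA (red, left) and normal (blue, right) libraries. Bars are means of 2 libraries and points single libraries; mt-Nd2 takes 26.5% and 28.6% in BPA, against 24.5% and 17.7% in normal cells, and mt-Cytb 25.2% and 21.1%, against 25.5% and 32.2%.

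Complex I reads stood against complex IV reads at a log2 ratio of 2.38 and 2.87 in BPA, and of 2.35 and 2.26 in normal cells. The complex IV reads were almost all of mt-Co1, with at least 22207 in every library, against at most 385 for mt-Co2 and 446 for mt-Co3. That was 2.63 ± 0.35 in BPA, against 2.31 ± 0.06 in normal cells (SD, n = 2 each). The difference of 0.32 had an exact two-sided permutation p of 0.333, the smallest possible, and was 0.07 without BPA replicate 2. With medians of log2 CPM over the genes of each complex the groups overlapped, at 6.25 and 8.84 in BPA, against 7.03 and 5.81 in normal cells, with an exact permutation p of 0.667. The complex IV median was that of mt-Co2 or mt-Co3 in every library, and the counts of these scarce genes are uncertain as levels. mt-Nd6 stood against the other 9 members at -3.76 and -3.23 in BPA, and at -4.17 and -3.77 in normal cells, on the same log2 scale. The difference of 0.47, a ratio chosen after the values were seen, also had an exact permutation p of 0.333, and it was 0.20 without BPA replicate 2 and 0.27 without normal replicate 1.

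The 2 BPA libraries were furthest apart for the same 3 abundant members that were furthest from the normal libraries. In CPM, BPA replicate 2 lay above BPA replicate 1 by 0.95 for mt-Nd6, 0.70 for mt-Nd5, 0.57 for mt-Nd2, 0.42 for mt-Nd1, 0.38 for mt-Nd4, 0.20 for mt-Cytb and 0.13 for mt-Co1 on the log2 scale. Normal replicate 2 against normal replicate 1 gave -0.47 for mt-Nd2, -0.27 for mt-Nd5, 0.37 for mt-Nd6 and 0.33 for mt-Cytb. For mt-Co3 the 2 BPA libraries were apart by -4.79 and the 2 normal libraries by 2.05.

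The partner subunits made from nuclear genes lay on both sides of zero. Of 31 tested nuclear subunits of complex I, 14 had positive and 17 negative log2 fold changes and the median was -0.31. Ndufa5, Ndufs3 and Ndufa8, the 3 with the most reads, had 0.12, 0.11 and 0.44. Of 9 tested subunits of complex III, 4 were positive and 5 negative, with a median of -0.56 and with Uqcrh at -0.56, Uqcrc1 at 0.09 and Uqcrc2 at -1.74. Of 10 for complex IV, 6 were positive and 4 negative, with a median of 0.36 and with Cox6c at 0.67, Cox6b1 at -0.59 and Ndufa4 at 0.46. Of 13 for ATP synthase, 3 were positive and 10 negative, with a median of -0.25 and with Atp5b at -0.07, Atp5a1 at -0.25 and Atp5g3 at 0.87. edgeR called 0 in each of these lists, while DESeq2 called 1, the ATP synthase gene Atp5d, with 3 and 0 reads in BPA, against 1010 and 118 in normal cells. At an unadjusted edgeR p under 0.05 there were Ndufb9 of the 31, Cox8a of the 10 and Atp5d of the 13, all lower, where 7.23% of all tested genes were lower.

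Genes whose proteins make, process and translate mitochondrial RNA lay on both sides of zero, and edgeR called none of them. Of 27 tested factors for transcription and RNA processing, 12 had positive and 15 negative log2 fold changes and the median was -0.30. Grsf1, which binds RNA in mitochondrial RNA granules, had 0.47, Ptcd3, of the small mitochondrial ribosomal subunit, 0.37, and Tfam, the packaging and transcription factor of mitochondrial DNA, 0.62. Tfam had 2813 and 60 reads in BPA, against 1343 and 966 in normal cells, so that its 2 BPA libraries lay on either side of the normal ones. edgeR called 0, and 5 of the 27 (Supv3l1, Mettl17, Ptcd1, Mterf2 and Fastkd1) had lower counts at an unadjusted p under 0.05, where 7.23% of all tested genes did. Supv3l1, the helicase of the mitochondrial RNA degradosome, had 0 and 0 reads in BPA, against 247 and 150 in normal cells. All 5 had 0 or 1 reads in each BPA library and an edgeR adjusted p of 0.372. Over all tested genes 27.2% were lower in BPA without overlap in CPM.

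Of 56 tested mitochondrial ribosomal protein genes, 22 had positive and 34 negative log2 fold changes and the median was -0.66. Mrpl39, Mrps10 and Mrps25, those with the most reads, had -0.46, 1.47 and 0.06. edgeR called 0, and 9 had lower and none had higher counts at an unadjusted p under 0.05, where 7.23% of all tested genes were lower. DESeq2 called 5 of the 56 (Mrpl1, Mrpl9, Mrpl24, Mrpl32 and Mrps2), all lower, where it called 3.05% of all tested genes. Of these, Mrpl24 had 4 and 4 reads in BPA, against 1223 and 662 in normal cells. All 5 tested regulators of mitochondrial biogenesis were positive, with a median of 0.77, among them Gabpa at 0.55, Gabpb1 at 0.08 and Yy1 at 0.77, and none passed an unadjusted p of 0.05. The sign of all 3 named regulators rested on single libraries. Without BPA replicate 1 Yy1 had -5.81 and Gabpb1 -0.56, without BPA replicate 2 Gabpa had -0.62, and without normal replicate 1 Yy1 had -0.08 and Gabpb1 -0.38. Yy1 had 1333 and 5 reads in BPA, against 160 and 785 in normal cells. Of 13 mitochondrial chaperones and proteases 7 were positive and 6 negative, with a median of 0.09. There the chaperonin genes Hspd1 and Hspe1 had 0.51 and 1.11 and Hspa9, the mitochondrial HSP70, had -0.48, with edgeR adjusted p-values of 0.584, 0.372 and 0.694. Genes with 0 reads in both libraries of a condition have no bounded fold change, and setting them to the limit that 3 reads over the condition allow left the median of each list the same. That limit cannot turn the direction of such a gene, so it could hardly move a median. The lists for complex III, ATP synthase, biogenesis regulators, and chaperones and proteases held no such gene.

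The m6A data were a table of 3331 peaks for which the libraries of each condition were pooled by the authors. Values for the immunoprecipitate (IP) and the input were scaled to a common total (RPM). The totals behind that scale were 818212 reads for the BPA input and 1703692 for the normal input, well below the gene table's library totals. The listed peaks alone summed to between 826089 and 894159 RPM per column, which is most of that common total. IP over input is therefore mostly relative to the reads of the listed peaks, and cannot be read as enrichment over all RNA. Of 10 peaks on the mitochondrial chromosome, 4 lay in the members: 2 in mt-Co1 and 1 each in mt-Nd5 and mt-Cytb. Coordinates follow the authors' table, for which the notes name the mouse build GRCm39, and all 10 peaks are on the plus strand, where 49.7% of all peaks are. No peak was listed for mt-Nd6, which lies on the other strand, or for mt-Nd1, mt-Nd2, mt-Nd4, mt-Co2, mt-Co3 and mt-Atp6. The authors' false discovery rate was under 0.05 for the 4 peaks, as it was for 100.0% of the table, 68.8% of which were higher and 31.2% lower in BPA, so passing it sets no peak apart; it was under 0.01 for 99.0%, with 68.3% higher and 30.7% lower. With 1 pooled value per condition there was no replicate error and no test.

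The first mt-Co1 peak (MT:5328-5377) had the fewest reads, with almost none in the BPA input. It had 102.34 RPM in the IP and 2.44 RPM in the input of BPA cells, which are 400 and 2 reads. In normal cells it had 62.57 RPM in the IP and 22.3 RPM in the input, which are 338 and 38 reads. IP over input was 41.9 in BPA, with a 95% interval for counting error of 11.5 to 347, and 2.81 in normal cells, with 2.002 to 4.03. In the authors' deposited table its log2 fold change, IP over input in BPA against normal, was 4.68.

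The second mt-Co1 peak (MT:6678-6702) was deep in all 4 columns. It had 1113 RPM in the IP and 1379 in the input of BPA cells, against 1202 and 1818 RPM in normal cells. IP over input was 0.807 (0.756 to 0.863) in BPA, against 0.661 (0.633 to 0.690) in normal cells. Among the 1016 deep peaks, those where all 4 columns reach 100 reads, the median was 0.599 in BPA, against 0.886 in normal cells, and this peak stood at percentiles of 65.2 in BPA and 33.3 in normal cells. IP over input was above 1 for 26.2% of the deep peaks in BPA and 43.6% in normal cells, and for this peak in neither. Its log2 fold change in the authors' deposited table was 1.06.

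The mt-Nd5 peak (MT:12042-12141) was the one member peak that was lower in BPA in the authors' deposited table. It had 793 RPM in the IP and 2586 in the input of BPA cells, against 2067 and 1820.16 RPM in normal cells, so the IP was lower and the input higher in BPA. IP over input was 0.307 (0.290 to 0.324) in BPA and 1.14 (1.09 to 1.18) in normal cells, at percentiles of 19.5 in BPA and 63.5 in normal cells among those 1016 peaks. Its log2 fold change in the authors' deposited table was -1.11.

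The mt-Cytb peak (MT:14495-14569) had the most reads and differed least. It had 2920.1 RPM in the IP and 5259 in the input of BPA cells, against 2587 and 4389 RPM in normal cells. IP over input was 0.555 (0.536 to 0.575) in BPA and 0.589 (0.573 to 0.606) in normal cells, at percentiles of 45.5 in BPA and 26.1 in normal cells. The authors' deposited table gave 0.69 as the log2 fold change, while the RPM columns give -0.09. The deposited log2 values exceed those computed from RPM (IP over input, BPA over normal) by 0.78 throughout the 1016 deep peaks, so the sign of a small change such as this one depends on that constant. On the RPM scale alone the others had 3.90 and 0.29 (mt-Co1) and -1.89 (mt-Nd5).

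**Figure D4:**
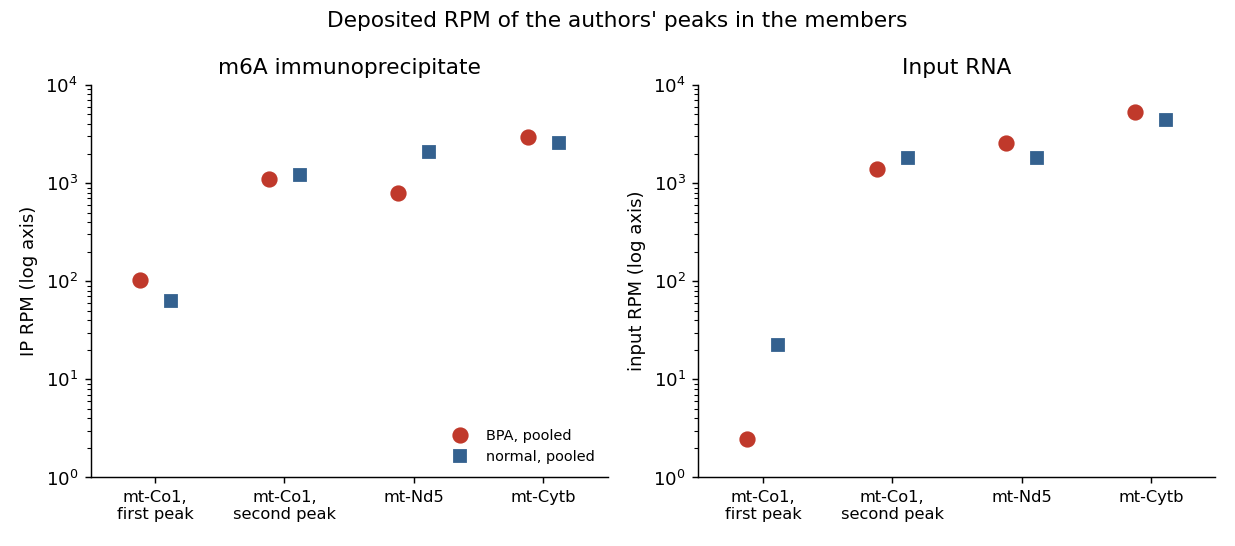
Deposited RPM (log axes) of the 4 peaks in members, in the m6A immunoprecipitate and in the input, with 1 pooled value for BPA (red circles, left) and 1 for normal cells (blue squares, right). The mt-Nd5 peak has 793 RPM in BPA against 2067 in normal cells in the IP, and the first mt-Co1 peak has 2.44 against 22.3 RPM in the input.

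The input of the peaks and the gene counts come from the same kind of library and were set side by side. For mt-Nd5 and mt-Cytb the log2 change of the input over the peak was 0.51 and 0.26, against 0.77 and 0.24 for the whole gene. For mt-Co1 the input over its 2 peaks gave -3.19 and -0.40, against 0.41 for the whole gene. The peaks cover between 25 and 100 bases, a small stretch of each gene, and the RPM scale rests on totals of 818212 reads for the BPA input and 1703692 for the normal input, so the scales of the 2 tables differ.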

How the data were processed

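RNA of TM3 cells was purified with an mRNA kit meant to remove ribosomal RNA, fragmented, and in part immunoprecipitated for m6A, per the labels' protocols. The authors deposited whole read counts per Ensembl gene. Named in the submitters' processing notes, with no role or order, are DESeq2 1.38.3, featureCounts 2.0.1, HISAT2 2.2.1, fastp 0.20.1 and the builds GRCm39 and GRCh38. No peak caller is named there. For peaks the authors deposited RPM with a log2 fold change and an FDR (an adjusted p-value), pooling the libraries per condition. Each RPM was a whole number of steps within 0.1 read in 100% of peaks, which gave back the reads. A count test on them would have 1 value per condition and was not run. Peak starts were shifted to 1-based positions. The count columns name a condition and number but no assay, and were taken as the RNA-seq libraries.

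The test of gene counts was that of edgeR 4.0.16 under R 4.3.3, with TMM and filterByExpr with minimum count 10 and total 15. It was a robust quasi-likelihood F test with Benjamini-Hochberg adjustment over all 8645 genes. The procedure was also tested on simulated data. The check that had to pass used less spread between libraries than these data have, so it does not show what was detectable here. DESeq2 1.42.0 was an alternative. Standard errors were derived from the F statistic. IP over input has exact 95% binomial intervals for counting error only, since reads are not independent molecules. Of 12404 gene IDs, 12271 had a symbol. Lengths, names and order of mitochondrial genes come from RefSeq (GRCm38.p6), in which all 10 mitochondrial peaks lay inside their gene. The members and gene lists were chosen with earlier results of these data known. Named genes were the members, other mitochondrial genes, the 3 tested genes of each nuclear list with the highest mean log2 CPM, and the 5 genes with the nearest profile. Other genes, such as those named for an unadjusted p, were chosen after their values were seen.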

Additional observations from a re-analysis of the deposited data

How the results depend on the processing

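Of the members' log2 fold changes under all alternatives, 109 values kept their direction and their side of the threshold, 3 passed the threshold and 5 changed sign. The 3 were mt-Nd2 and mt-Nd6 with DESeq2 and mt-Nd2 without normal replicate 1. Over all genes edgeR called 0 and DESeq2 264, and leaving out 1 library gave 0 to 234 calls, with 234 without BPA replicate 1, 229 without BPA replicate 2 and 1 without normal replicate 1, where a lone library is assumed to vary like the other group. Counted at an unadjusted p under 0.05, 208 genes were higher and 625 lower, against 397 and 193 with no filter on low counts, 52 and 25 among genes averaging 1000 reads or more, and 117 and 1095 with legacy dispersions, an alternative chosen after seeing the data. The cause was not tested.

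Leaving out 1 library gave 0.66 to 1.29 for mt-Nd2, 0.38 to 1.08 for mt-Nd5 and 0.52 to 1.47 for mt-Nd6, a share difference of 0.411 to 1.01 percentage points and a log2 ratio of complex I to complex IV of 0.07 to 0.57, and medians of log2 CPM in place of summed reads gave 1.13 for that ratio, with groups that overlapped (exact permutation p = 0.667). Leaving out 1 library turned the sign, in ranges of -0.0096 to 0.37 for mt-Nd4, -2.09 to 3.27 for mt-Co3, -0.048 to 0.87 for mt-Rnr1, -0.11 to 1.62 for Grsf1, -0.91 to 1.16 for Ptcd3, -3.42 to 1.45 for Tfam, -0.0087 to 0.44 for Ndufa5, -0.17 to 0.60 for Ndufs3, -1.09 to 1.10 for Ndufa8, -0.47 to 0.68 for Uqcrc1, -1.38 to 1.40 for Ndufa4, -0.25 to 0.20 for Atp5b, -1.11 to 0.22 for Atp5a1, -0.62 to 1.24 for Gabpa, -0.56 to 0.96 for Gabpb1, -5.81 to 2.77 for Yy1, -1.30 to 0.74 for Mrps25, -0.10 to 0.39 for Gfpt1, -0.052 to 0.38 for Gas6 and -0.029 to 0.29 for Arhgap18.

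With total reads alone the sign also turned for mt-Nd4 (-0.060), Ndufa5 (-0.12), Ndufs3 (-0.11), Uqcrc1 (-0.14), Gabpb1 (-0.12), Mrps25 (-0.15), Gfpt1 (-0.17), Gas6 (-0.14), Arhgap18 (-0.17), Ankrd40 (-0.11) and Ube2k (-0.029). Among genes averaging 1000 reads or more it turned for mt-Nd4 (-0.086), mt-Cytb (-0.026), Ndufa5 (-0.16), Ndufs3 (-0.16), Gabpb1 (-0.17), Gfpt1 (-0.21), Gas6 (-0.18) and Arhgap18 (-0.21). Atp5b turned to 0.067 with DESeq2 and 0.068 with its size factors. The mt-Cytb peak turned to -0.086 on the RPM columns, a scale without the authors' added constant, and all 4 member peaks passed an FDR of 0.01, of which 3 had at least 100 reads in every column.

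The libraries share replicate numbers, but the labels do not say that a number marks a shared culture, and same-numbered libraries did not deviate together (r = -0.00096). With the replicate number as a block edgeR called 0 genes, and unadjusted p-values under 0.05 went with 164 genes higher and 52 lower in BPA. Under that block mt-Nd2 had 0.96, mt-Nd6 1.00 and mt-Nd5 0.73, Mrps25 turned to -0.029. The share difference of 0.712 points and the ratio of 0.32 cannot change under a block here, since each number occurs once per condition. With 2 libraries a condition, small differences were not detectable, and large ones could be missed as well. Mrpl24, with far fewer reads in both BPA libraries than in either normal library, was not called by edgeR. The absence of edgeR calls therefore does not show that differences were small.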

Other observations

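The 2 ribosomal RNAs of mitochondria were also in the count table, although the kit was chosen to remove ribosomal RNA, per the labels. mt-Rnr1, the small ribosomal RNA, had 15245 and 17885 reads in BPA, against 21325 and 14151 in normal cells, with a log2 fold change of 0.48 ± 0.37 (SE). mt-Rnr2, the large one, had 26441 and 26456 reads in BPA, against 32906 and 21826 in normal cells, with 0.50 ± 0.32. Their edgeR adjusted p-values were 0.630 and 0.519, and in BPA replicate 2 mt-Rnr1 lay above BPA replicate 1 by 0.92 on the log2 scale. Of the transfer RNA genes in the table, mt-Tm had 0 and 1 reads in BPA, against 0 and 0 in normal cells, and mt-Tp had 0 and 0 in BPA, against 0 and 63 in normal cells.

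The other 6 mitochondrial peaks lay in ribosomal and transfer RNAs and differed among themselves. Of 3 neighbouring peaks in mt-Rnr1, the first (MT:345-394) had an IP over input of 1.13 in BPA and 0.634 in normal cells. Those next to it (MT:420-444 and MT:470-494) had 0.212 and 0.180 in BPA, against 1.42 and 1.44 in normal cells. The input of these was higher in BPA by 1.92 and 1.47 on the log2 scale and that of the first was lower, at -0.53. In mt-Tt, next to mt-Cytb, the input had 831 RPM in BPA and 123 RPM in normal cells, and in mt-Tl2, next to mt-Nd5, 23.2 RPM in BPA and 369 RPM in normal cells. Neighbouring stretches of the same transcripts thus differed in opposite directions in the pooled input.

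The 5 genes outside the mitochondrial chromosome, of 3201 with a mean log2 CPM of at least 6, whose centred profile over the 4 libraries lay nearest to the mean of the 10 members were Gfpt1, Gas6, Arhgap18, Ankrd40 and Ube2k, at Euclidean distances of 0.06 to 0.15. Their log2 fold changes were between 0.06 and 0.20. Nearest to the mean of the 7 abundant members, a choice made after seeing the data, were Supt5, Kpna2, Cald1, 1700021F05Rik and Nasp, with log2 fold changes between 0.47 and 0.68. With 4 libraries many profiles lie close by, and the lists are a description.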
